A study of Homo sapiens with 2 samples.

Results

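ZFX peaks were examined at 8 genes of growth factor signalling in DAOY, a cell line established from a human medulloblastoma. The genes were 4 ligands (PDGFA, PDGFB, HDGF and VEGFA) and 4 receptor tyrosine kinases (PDGFRA, PDGFRB, EGFR and MET). They were chosen by name with earlier results of these data known, and a peak was assigned to a gene when it overlapped the 5 kb on either side of 1 transcription start per gene, given on the hg19 build. Of the 14471 peaks in the list, 18 met this condition, 15 at ligand genes and 3 at receptor genes. The study held 2 samples of DAOY chromatin sheared by sonication, 1 precipitated with a rabbit polyclonal antibody against ZFX and 1 input without precipitation. Neither sample carried a stated treatment or genetic change. Only the ZFX library was analysed here. A single library gives no check by replication, and no test was made. Its depth is unknown, so no counting error can be attached to a peak. Peak scores are the authors' own and have no stated unit. Over the whole list it ran from 50 to 3233 with a median of 109, and it was used to describe and rank peaks within this list.

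Receptor tyrosine kinases span the cell membrane, pair up when an extracellular ligand binds, and start signalling by phosphorylating tyrosines on each other. PDGFA and PDGFB encode the chains of platelet-derived growth factor, which acts through the receptors PDGFRA and PDGFRB. VEGFA encodes the main growth factor of blood vessels, whose own receptors are not among the 8 genes, and HDGF encodes a heparin-binding growth factor that also enters the nucleus and is not known as a classical ligand of these receptors. EGFR is the receptor for epidermal growth factor and MET the receptor for hepatocyte growth factor, and the ligands of both lie outside the 8 genes. ZFX is a zinc finger transcription factor known to bind CpG-rich promoters, often just downstream of the start, and its motif has the core AGGCCT.

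A peak lay within 5 kb of the start at 6 of the 8 genes, 3 of the 4 ligands and 3 of the 4 receptors. The genes with a peak were PDGFA with 6, HDGF with 5, VEGFA with 4, and PDGFRB, EGFR and MET with 1 each. PDGFB and PDGFRA had none. As a background, 4.15% of 10 kb windows tiled along the chromosomes held a peak (12184 of 293653). These windows were not centred on gene starts, so they do not give the share of promoters with a peak. Within 500 kb on each side of the 8 starts, 99 of 800 such windows held a peak (12.4%). The lowest share was 3.0% around PDGFRA and the highest 19.0% around PDGFRB, with 8.0% around EGFR, 9.0% around MET, 13.0% around PDGFA, 14.0% around PDGFB, 16.0% around VEGFA and 17.0% around HDGF. PDGFRA therefore lay in the surroundings with the fewest occupied windows, whereas those of PDGFB were as occupied as those of the ligands that had peaks. Since the 8 genes were picked with these results known, the count of 6 is a description.

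**Figure D1:**
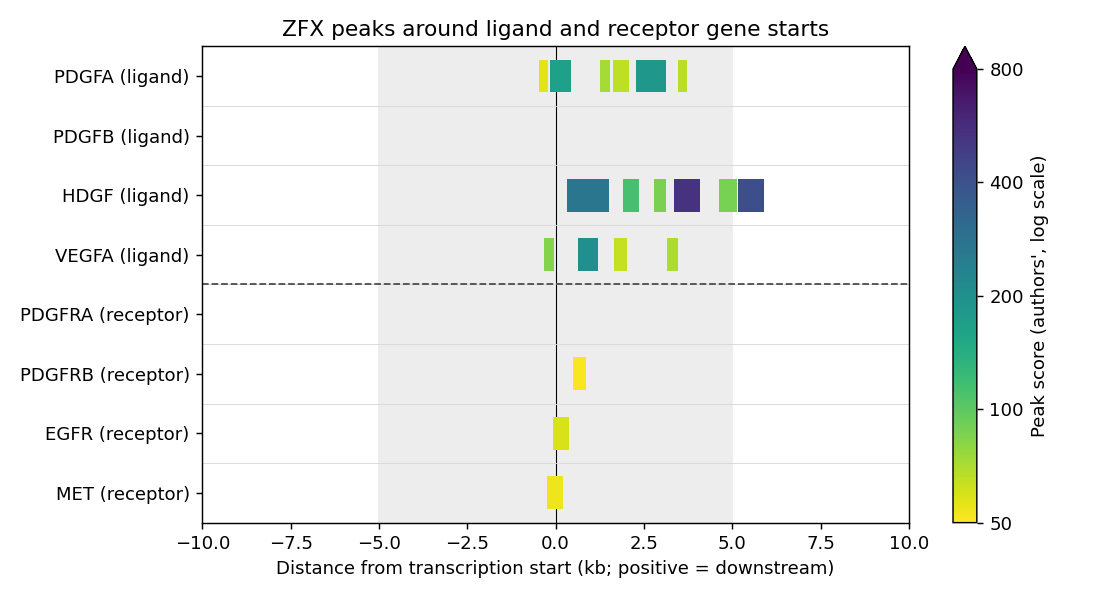
Positions of ZFX peaks (bars) along 10 kb on each side of the transcription start of 4 ligand genes (top) and 4 receptor genes (bottom), in kb, with positive distances downstream; colour gives the authors' score on a log scale and grey the 5 kb on each side. Within the grey, PDGFA, HDGF and VEGFA carry runs of 6, 5 and 4 peaks. PDGFRB, EGFR and MET carry 1 low-scoring peak each, and PDGFB and PDGFRA none. In the whole range drawn, HDGF has 6 peaks.

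The ligand and receptor genes differed in how many peaks each occupied gene carried. Each of the 3 ligand genes with peaks held 4 or more, and each of the 3 receptor genes held 1. The difference depended on the window. With 1 kb on each side the ligands held 5 peaks, PDGFA and VEGFA 2 each and HDGF 1, against 3 at the receptors, so HDGF then held as many as a receptor gene. In the tiled windows, 0.0392% held 4 or more peaks, which was 0.944% of the windows with any peak, and 79.2% of the windows with a peak held exactly 1. Borders of the tiled windows can split a run of close peaks, and the windows were not centred on gene starts. These shares are therefore not those of windows around gene starts. Together the peaks covered 7516 bp at the ligand genes and 1280 bp at the receptor genes. Median peak width was 448 bp at the ligands and 449 bp at the receptors, against 481 bp in the whole list, so the difference in covered length followed the number of peaks and not their typical width. Whether close peaks are separate sites was not tested. When peaks at most 1 kb apart were joined, the ligands held 4 regions and the receptors 3, so a difference in number of sites was not seen on that count.

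Scores were also higher on the whole at the ligand genes, with some overlap. The ligand peaks scored between 56.5 and 535 with a median of 87.2, and the receptor peaks between 51.6 and 59.3 with a median of 53.8. Of the ligand peaks, 6 of 15 (40.0%) scored above the median of the list, and none of the 3 receptor peaks did. The ranges overlapped through the weakest PDGFA peak, which scored 56.5 and lay below the EGFR peak at 59.3. All 3 receptor peaks scored under 60, against 1 of the 15 ligand peaks and 18.3% of the whole list. No peak at the 8 genes reached a score of 1000, which 2.10% of the list did. A window of 10 kb held a peak scoring 100 or more in 2.55% of cases, and PDGFA, HDGF and VEGFA were the 3 of 8 genes with such a peak. With 3 occupied genes in each group and genes chosen for their results, these differences were not tested.

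**Figure D2:**
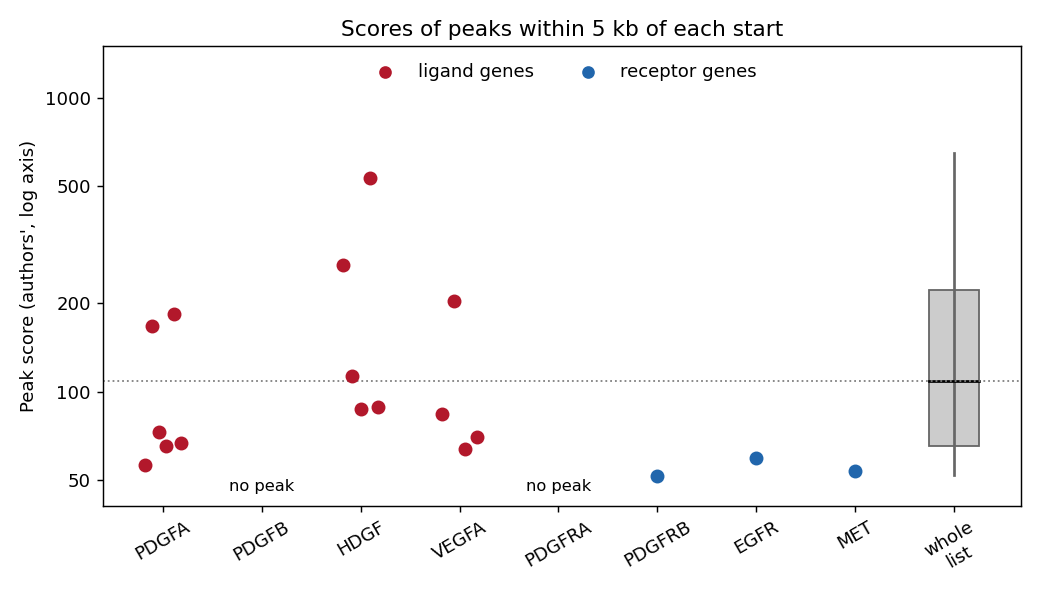
Authors' score (log axis) of every peak within 5 kb of each start, for ligand genes (red) and receptor genes (blue), beside the whole list (box, 25th to 75th percentile; bar in the box and dotted line, median; whiskers, 5th to 95th percentile). The 3 receptor peaks lie between 51.6 and 59.3, below the list's 25th percentile of 65.4, and 6 of the 15 ligand peaks lie above the median of 109.

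PDGFA, which encodes the A chain of platelet-derived growth factor, carried the most peaks within 5 kb. Its start on the minus strand of chromosome 7 (hg19 559481), near the tip of the short arm, was covered by a peak of 576 bp at chr7:559051-559626 with a score of 167, reaching from 145 bp upstream to 430 bp downstream. A smaller peak of 275 bp with a score of 56.5 lay just upstream, between 204 and 478 bp from the start. The other 4 peaks lay downstream, beginning 1271, 1623, 2275 and 3464 bp from the start, with scores of 72.8, 65.6, 184 and 66.8. The strongest of the 6 was thus not the one at the start but the peak of 858 bp at chr7:556349-557206, and the peak on the start came next. The gaps between neighbouring peaks ran from 58 to 840 bp, so all 6 joined into 1 stretch of 4204 bp. Beyond the 5 kb, the next peaks upstream lay 18.4 and 22.9 kb away with scores of 235 and 615, both above any peak at PDGFA itself. On the other side no peak was listed for 330 kb.

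HDGF, which encodes hepatoma-derived growth factor, had the strongest peaks of the 8 genes. All of them lay downstream of the start used (hg19 chr1, 156722240, minus strand). HDGF has 4 annotated starts on GRCh38.p14, and the peaks were not set against the others, so a peak may cover another start. The peak nearest to the start began 324 bp downstream, covered 1188 bp at chr1:156720729-156721916, the widest of the 18, and scored 269. It was followed by peaks beginning 1915 bp downstream with a score of 113 and 2781 bp downstream with a score of 87.2. The strongest, at chr1:156718152-156718877, began 3363 bp downstream, covered 726 bp and scored 535, and 7.18% of the list scored as high or higher. The last of the 5 lay on the edge of the 5 kb, between 4616 and 5145 bp, with a score of 88.7. Just outside, a peak of 734 bp between 5158 and 5891 bp scored 409, more than 4 of the 5 counted for HDGF. All 6 joined into 1 stretch of 5568 bp.

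Counting those within 5 kb, HDGF had the most peaks within 25 kb, with 9, against 8 at PDGFA and 4 at VEGFA. PDGFB, PDGFRB, EGFR and MET had 1 each, and PDGFRA 0. Of these, 5 of the 9 at HDGF, 6 of the 8 at PDGFA and all 4 at VEGFA lay within 5 kb. The 1 at PDGFB did not. One of the 9 at HDGF, at chr1:156737126-156738166, scored 3100, a value that only 3 peaks of the list exceeded. It lay upstream of HDGF, 14.9 to 15.9 kb from the start. In the RefSeq gene table of the GRCh38.p14 build, the next protein-coding gene on that side is PRCC, and on the other side MRPL24, which encodes a mitochondrial ribosomal protein. Peak positions were not placed on that build, so the peak was not assigned to any of these genes. Further peaks downstream began 11.1 and 23.5 kb from the HDGF start, with scores of 280 and 779. The second of these also exceeded the strongest peak counted for HDGF.

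VEGFA carried 4 peaks around its start on the plus strand of chromosome 6 (hg19 43737946). A peak of 306 bp with a score of 83.8 lay from 337 to 32 bp upstream and stopped short of the start. The strongest, at chr6:43738581-43739149, covered 569 bp from 635 to 1203 bp downstream and scored 204. Peaks beginning 1643 and 3144 bp downstream scored 63.7 and 70.1. The first 3 joined into a stretch of 2358 bp across the start, and a gap of 1123 bp kept the last apart. Unlike PDGFA and HDGF, VEGFA had no other peak within 100 kb of its start. None was listed for 141 kb upstream or 226 kb downstream. On its downstream side PDGFA had a longer stretch without another peak, to 330 kb. Within 500 kb the occupied windows numbered 16 of 100 around VEGFA, against 13 around PDGFA and 17 around HDGF.

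PDGFB, which encodes the B chain of platelet-derived growth factor, had no peak within 5 kb of its start (hg19 chr22, 39640957, minus strand). The nearest lay 10.0 kb upstream, at chr22:39650960-39651275, covered 316 bp and scored 90.4. Within 100 kb PDGFB had 6 peaks, 4 upstream and 2 downstream. The strongest of them scored 789 and lay 74.0 kb upstream. On the start side, the next protein-coding gene in the GRCh38.p14 gene table is RPL3, which encodes a protein of the large ribosomal subunit. Within 5 kb, the genes for the 2 platelet-derived growth factor chains thus stood at opposite ends of the ligands. PDGFA had the most peaks there and PDGFB none. The first place of PDGFA depended on the window. PDGFA and VEGFA held 2 peaks each within 1 kb, and PDGFA and HDGF 6 each within 10 kb. Joining close peaks left PDGFA with fewer regions than VEGFA.

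Among the receptors, EGFR and MET had a single peak that covered the start itself. At EGFR (hg19 chr7, 55086725, plus strand) the peak at chr7:55086653-55087118 reached from 72 bp upstream to 393 bp downstream and scored 59.3, and 82.7% of the list scored as high or higher. At MET (hg19 chr7, 116312459, plus strand) the peak at chr7:116312231-116312679 reached from 228 bp upstream to 220 bp downstream and scored 53.8, with 91.6% of the list as high or higher. Both were therefore centred close to the start but weak for this list. At PDGFRB, which binds the B chain of platelet-derived growth factor, the peak at chr5:149534562-149534926 lay 496 to 860 bp downstream of the start (hg19 149535422, minus strand). Its score of 51.6 was the lowest of the 18, with 96.0% of the list as high or higher and the lowest score in the list at 50. All 3 receptor peaks thus lay near the lower end of the list, and whether they would recur in another library is unknown.

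PDGFRA, the receptor that binds both the A and the B chain, was the emptiest of the 8 genes. No peak lay within 100 kb of its start (hg19 chr4, 55095264, plus strand). The nearest peak upstream was 124 kb away with a score of 52.5, and the nearest downstream was 1117 kb away with a score of 82.1. In the GRCh38.p14 gene table the next protein-coding gene downstream is KIT, another receptor tyrosine kinase of the same family. No peak in the list lay near enough to PDGFRA to be set beside the 51.6 to 59.3 of the other receptors. A gene without a listed peak is not shown to be unbound, since the threshold behind the list is unknown.

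Between 5 and 100 kb from the start, EGFR had 2 peaks, PDGFRB 3, and MET and PDGFRA none. Within 250 kb, all peaks counted, PDGFRB had 12, EGFR 7, MET 6 and PDGFRA 2, and the ligands HDGF 15, PDGFA 10, and PDGFB and VEGFA 6 each. The EGFR peaks lay 46.7 and 55.9 kb downstream with scores of 55.2 and 93.7, within the 192612 bp that the gene spans in the GRCh38.p14 table. At MET the next peak was 104 kb downstream with a score of 51.1, within a gene span of 126182 bp, and 146 kb upstream with a score of 141. PDGFRB had a peak 42.9 kb downstream with a score of 172, on the side of CSF1R, which encodes a related receptor tyrosine kinase. The PDGFRB gene spans 42007 bp in the GRCh38.p14 table. That is too close to the hg19 distance to place the peak inside or outside the gene. On the other side of PDGFRB, peaks 46.6 and 53.0 kb away scored 50.4 and 215. Within 100 kb of the start, EGFR, PDGFRB, PDGFA and HDGF had a stronger peak outside the 5 kb than inside it. VEGFA and MET had no other peak in that range.

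**Figure D3:**
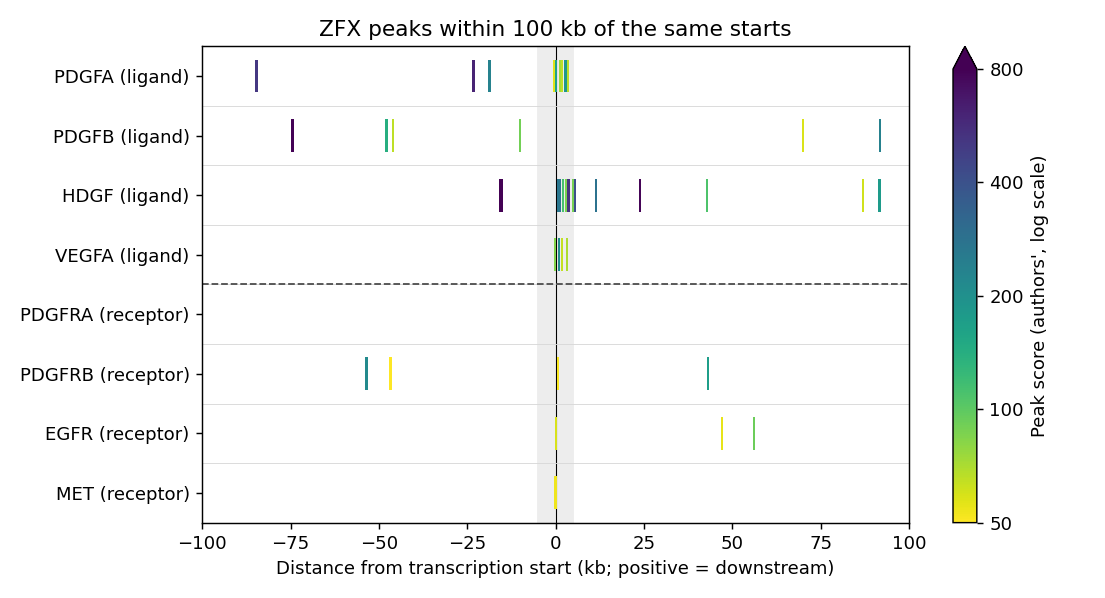
ZFX peaks within 100 kb on each side of the same starts, in kb, with positive distances downstream; colour gives the authors' score on a log scale, with scores over 800 in the darkest colour, bars narrower than 0.6 kb are widened to that size, and grey marks 5 kb on each side. PDGFRA has no peak in this range, MET 1, EGFR 3, PDGFRB and VEGFA 4, PDGFB 6, PDGFA 9 and HDGF 12.

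Within 5 kb, most of the 18 peaks lay downstream of the 1 start used per gene. PDGFA and HDGF have 4 annotated starts each, so a peak downstream of the start used may cover or lie upstream of another. Of all 18, 13 lay wholly downstream of the start, 3 covered it and 2 lay wholly upstream. Among ligand peaks 12 of 15 were downstream, 1 covered the start and 2 were upstream, and among receptor peaks 1 of 3 was downstream, 2 covered the start and none was upstream. The downstream majority depended on the window. With 1 kb on each side, 3 of 8 peaks were downstream, 3 covered the start and 2 were upstream, and when close peaks within 5 kb were joined, 3 of 7 regions were downstream and 4 covered the start. In each of the 3 ligand genes with peaks the strongest peak was downstream, at 2275, 3363 and 635 bp in PDGFA, HDGF and VEGFA. At the 3 genes the peaks of 1 gene share their place in the genome and are not independent of each other, and HDGF and PDGFA contribute 9 of the 13 downstream peaks.

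Chromosome 7 carried PDGFA, EGFR and MET and with them 8 of the 18 peaks. Their scores ran from 53.8 to 184 with a median of 66.2, against a median of 117 over all 945 peaks of that chromosome.

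Promoter sequences from RefSeq, each running from 250 bases before a start to 50 bases after it on GRCh38.p14, were matched for 6 of the 8 genes. PDGFA and HDGF each had 4 annotated starts, PDGFRA and EGFR 2, and PDGFRB and MET 1, or 14 promoters in all. Which of these starts corresponds to the hg19 start used for the peaks was not determined, so the letters describe the genes and not the sequence under a peak. The core AGGCCT, which reads the same on both strands, was found in 2 of the 14, 1 of PDGFA and 1 of HDGF, and in 10.9% of all 35116 promoters of this length. In both it stood within the longer form AGGCCTNG, searched on both strands, which 6.14% of all promoters hold. None of the 6 receptor promoters held AGGCCT. The shorter AGGCC, searched on both strands and contained in AGGCCT, was found in 9 of the 14, in 6 of 8 ligand promoters and 3 of 6 receptor promoters, and in 56.2% of all promoters. The 2 ligand promoters with the full core are shown first, with every AGGCC and its reverse complement GGCCT in capitals. In PDGFA the core begins 210 bases before the start, and in HDGF 33 bases before it.
PDGFA, chr7:520177-520476 on GRCh38.p14, strand -: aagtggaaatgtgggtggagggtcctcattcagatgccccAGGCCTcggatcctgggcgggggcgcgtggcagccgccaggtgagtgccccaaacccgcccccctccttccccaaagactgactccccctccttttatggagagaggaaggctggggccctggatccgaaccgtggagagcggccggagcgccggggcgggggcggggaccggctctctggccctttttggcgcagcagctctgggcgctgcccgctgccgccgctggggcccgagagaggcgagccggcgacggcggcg
HDGF, chr1:156751626-156751925 on GRCh38.p14, strand -: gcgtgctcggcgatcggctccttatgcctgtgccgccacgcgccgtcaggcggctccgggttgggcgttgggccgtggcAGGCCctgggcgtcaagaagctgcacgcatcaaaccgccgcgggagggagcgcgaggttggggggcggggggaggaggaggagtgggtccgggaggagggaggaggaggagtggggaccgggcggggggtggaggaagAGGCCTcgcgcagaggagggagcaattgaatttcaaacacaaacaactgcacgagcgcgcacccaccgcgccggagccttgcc

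For the receptors the promoter of the outermost annotated start is shown with the same marking, because EGFR, MET and PDGFRB had a weak peak near the start and PDGFRA none. The EGFR promoter shown held a single GGCCT, and the inner promoter of EGFR, not shown, held 2. In the promoters shown, MET, PDGFRB and PDGFRA had no AGGCC on either strand, and the inner promoter of PDGFRA, not shown, held 1 GGCCT.
EGFR, chr7:55018767-55019066 on GRCh38.p14, strand +: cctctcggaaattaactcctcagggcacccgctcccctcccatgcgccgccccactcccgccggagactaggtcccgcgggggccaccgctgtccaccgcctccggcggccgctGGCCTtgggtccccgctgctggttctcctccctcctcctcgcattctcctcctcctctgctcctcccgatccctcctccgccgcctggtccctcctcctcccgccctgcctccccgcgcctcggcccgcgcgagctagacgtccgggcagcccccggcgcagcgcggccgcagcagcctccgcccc
MET, chr7:116671946-116672245 on GRCh38.p14, strand +: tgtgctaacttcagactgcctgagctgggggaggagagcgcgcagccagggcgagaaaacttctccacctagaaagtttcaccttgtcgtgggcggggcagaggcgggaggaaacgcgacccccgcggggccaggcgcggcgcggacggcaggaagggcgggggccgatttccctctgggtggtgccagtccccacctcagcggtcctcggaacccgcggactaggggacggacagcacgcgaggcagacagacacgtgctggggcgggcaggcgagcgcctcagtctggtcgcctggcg
PDGFRB, chr5:150155796-150156095 on GRCh38.p14, strand -: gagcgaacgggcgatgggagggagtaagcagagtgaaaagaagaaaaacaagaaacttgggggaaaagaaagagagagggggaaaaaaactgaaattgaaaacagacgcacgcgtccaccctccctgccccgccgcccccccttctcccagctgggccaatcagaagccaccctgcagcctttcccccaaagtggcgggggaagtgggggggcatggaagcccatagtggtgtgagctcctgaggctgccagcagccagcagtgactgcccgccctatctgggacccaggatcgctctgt
PDGFRA, chr4:54229043-54229342 on GRCh38.p14, strand +: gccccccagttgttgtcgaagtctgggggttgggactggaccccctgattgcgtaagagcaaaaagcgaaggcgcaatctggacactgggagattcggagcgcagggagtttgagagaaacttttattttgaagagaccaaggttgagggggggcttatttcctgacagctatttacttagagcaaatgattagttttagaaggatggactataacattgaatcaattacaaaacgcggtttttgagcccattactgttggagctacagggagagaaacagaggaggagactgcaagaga

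Base composition of these promoters varied with the start. The outermost promoter of EGFR had 75.3% G and C with 33 CpG pairs, and that of MET 69.3% with 30. The inner start of EGFR had 42.0% with 1, the lowest of the 14. PDGFRB had 59.3% with 11 and PDGFRA 47.0% with 8, although the inner start of PDGFRA had 66.7% with 32. The PDGFA promoters ran from 70.3% to 81.7%, and those of HDGF from 47.0% to 75.3%. The median was 71.0% over the ligand promoters, 63.0% over the receptor promoters and 58.7% over all promoters. The ligand promoters came from PDGFA and HDGF only, as none was matched for PDGFB and VEGFA, whereas all 4 receptors were included. CpG pairs numbered 29 at the median of the ligand promoters and 20.5 at that of the receptor promoters, against 14 over all.

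Other ligands and receptors of growth factor signalling were listed for sequence only, because their hg19 starts were not used here. Of 20 other ligands, 18 had 25 promoters, and 1 of these held AGGCCT, that of IGF1, which encodes insulin-like growth factor. Of 20 other receptors, 17 had 26 promoters, and 3 held AGGCCT, those of FGFR2 and FGFR4, which bind fibroblast growth factors, and MST1R, the relative of MET that binds macrophage-stimulating protein. These shares, 4.0% and 11.5%, stand beside 10.9% of all promoters, and a match of letters is not a bound site.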

How the data were processed

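ChIP-seq of ZFX in DAOY was deposited as 1 list of peaks without a header, with chromosome, start, end, peak name and score. The score of each peak was deposited by the authors without a stated unit. Peak names carry the name MACS, per the file; the caller's version, cutoff and control sample are not stated in the sources used here. Bowtie2 2.0.0 and hg19 are named in the submitters' processing notes, with no role given, and hg19 was taken as the build of the positions. Starts were read as counted from 0 and are printed counted from 1. Samples were grouped by the antibody in the labels, and the input was not analysed here.

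The 8 genes, their starts and the lists were chosen with earlier results of these data known. All 8 genes are described, with every peak overlapping the 5 kb on each side of a start and otherwise the nearest peaks. Distances run in the direction of transcription. Windows of 10 kb were tiled between the outermost peaks of each chromosome. The number of peaks assigned was checked on simulated peaks lying wholly inside or wholly outside the window. Peaks across its border and the side of the start were not checked. No test was made, since 1 library has peaks. Alternatives were other windows, peak midpoints, higher scores, starts counted from 1, joined peaks and other motif lengths. Promoter sequences and gene names came from RefSeq tables on GRCh38.p14, and no position was carried between builds. Python 3.11.15, pandas 2.3.3, numpy 2.4.6 and matplotlib 3.10.9 were used.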

Additional observations from a re-analysis of the deposited data

How the results depend on the processing

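Of the 8 genes, 6 had a peak in the main setting, and 3 had one among peaks above the median score and among peaks scoring 100 or more. The 3 lost were the receptors, whose number with a peak was 0 in both settings, while the ligands with a peak numbered 3 in all settings. The 18 peaks became 8 with 1 kb on each side (5 at ligands and 3 at receptors), 6 above the median score, 6 at scores of 100 or more and 7 when peaks at most 1 kb apart were joined. Each of these follows from the alternative's own construction, since it takes fewer or longer peaks. With 2.5 kb or 10 kb on each side, with peak midpoints and with starts counted from 1, the counts stayed within 1.5 times the main ones. AGGCC in place of AGGCCT was found in 9 member promoters in place of 2, as a shorter word must be. The strongest score fell to 269 at HDGF with 1 or 2.5 kb and to 167 at PDGFA with 1 kb. Among peaks above the median score the nearest peak of VEGFA lay 635 bp downstream, where the main setting had it 32 bp upstream. No paired analysis was possible because 1 sample has peaks. Depth is unknown, so missed weak sites cannot be counted.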
